A study of Arabidopsis thaliana with 24 samples.

Results

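The 9 genes described here, of 21440 measured, are 4 NAC transcription factor genes of the Arabidopsis thaliana root cap and 5 genes that mark developmental cell death. They were taken by their locus codes, and all 9 were on the table with 1 probe set each. The NAC genes were FEZ (AT1G26870_at), SOMBRERO or SMB (AT1G79580_at), BEARSKIN1 or BRN1 (AT1G33280_at) and BEARSKIN2 or BRN2 (AT4G10350_at). The cell death genes were EXI1 (AT2G14095_at), DMP4 (AT4G18425_at), BFN1 (AT1G11190_at), PASPA3 (AT4G04460_at) and RNS3 (AT1G26820_at). They lie on chromosomes 1, 2 and 4, and RNS3 and FEZ are near neighbours on chromosome 1 with 3 protein-coding genes between them.

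The root cap covers the growing root tip, and its lateral part overlies the young epidermis. FEZ promotes the stem cell divisions that add cap layers, SMB restrains those divisions and drives maturation of lateral root cap cells, and BRN1 and BRN2 act with SMB in late cap maturation. Lateral root cap cells end in a programmed death at the upper edge of the cap. That death depends on SMB and is accompanied by transcripts of hydrolases such as the nuclease BFN1, which degrades nucleic acids in the dying cell. Several of these hydrolase genes are also active in differentiating xylem, which dies as it matures.

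Transcripts were measured on 24 arrays of sorted root tip cells, 3 arrays stated to be biological replicates from each of 8 mutant lines. The lines were cpc-1, try-82, ttg2-1, egl3-1, gl3-1, myb23-1, wer-1 and the combination cpc-1 ttg2-1, and every one carried WER::GFP, a fluorescent reporter under the WEREWOLF promoter, which is active in the lateral root cap as well as the epidermis. Seedlings were 5 days old, grown in continuous light, and the last 2 mm or so of the root was used. Wild type was not analysed here, so each difference is between mutants. WER and MYB23 are MYB factors and GL3 and EGL3 are bHLH factors that act together in non-hair cells, CPC and TRY are small MYB proteins that move between cells and inhibit that complex, and TTG2 is a WRKY factor expressed downstream of it.

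All values are log2 levels from robust multi-array averaging (RMA), given with the SD over 3 arrays, and a difference of 1 is a factor of 2. Levels are compared between lines for one gene, not between genes. The mutated genes check the labels only in part, since a mutated gene may still be transcribed. TTG2 was lowest of the 8 lines in ttg2 (4.35 ± 0.44), but at 8.25 ± 0.54, the highest, in the arrays labelled cpc ttg2, so those arrays are called by their label. CPC was at 9.88 ± 0.47 in cpc and 9.98 ± 0.21 in the cpc ttg2 arrays, beside 9.85 ± 0.71 in wer and 10.65 to 10.92 in the rest. MYB23 was at 7.40 ± 0.16 in myb23, above its level in wer (6.77 ± 0.86). TRY was highest in try (10.71 ± 0.55, against 7.09 to 9.57 elsewhere), EGL3 was at 7.36 ± 0.85 in egl3 within the 5.19 to 7.59 of the other lines, and WER was at 10.99 ± 0.36 in wer within 10.43 to 11.66. GL3 was not analysed here, and the labels try, egl3 and wer have no lowered transcript of the mutated gene itself behind them. The arrays labelled cpc ttg2 also had the lowest array medians (6.49 ± 0.03, against line means of 6.68 to 6.83 elsewhere), the highest 25S ribosomal RNA signal (11.08 ± 0.19) and the highest mitochondrial mean (6.85 ± 0.45). The 3′ minus 5′ signal of actin, a sign of RNA integrity, was highest there (5.79 ± 0.40, against 4.78 to 5.41), and that of GAPDH was 1.67 ± 0.13 there and 1.94 ± 0.72 in gl3, against 0.99 to 1.09 in the other 6 lines. Their part in the differences of these lines was not tested. Results are given with and without them. The number of arrays limits the precision.

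As a description of the tissue, the array means of marker lists ran from 7.05 to 8.20 for 12 other root cap genes, 7.46 to 8.78 for 8 epidermal genes, 5.47 to 6.43 for 5 phloem and stele genes, 3.62 to 5.22 for 6 ground tissue genes and 3.56 to 4.61 for 12 xylem genes. Levels of different probe sets cannot be compared, so these ranges do not measure how much of each tissue was sorted. Single genes lay outside their list's range: the stele receptor gene WOL was at 9.22 to 10.73, the xylem cellulose synthase gene CESA4 reached 8.50, and PIN3, an auxin efflux carrier gene of the cap list, was at 3.26 to 5.15.

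Over the 8 lines, 5 of the 9 genes differed in the moderated F test of limma at an adjusted p under 0.05, where 27% of all genes did. EXI1 had the smallest adjusted p (5.56e-05), followed by DMP4 (0.00113), PASPA3 (0.0066), BFN1 (0.0159) and FEZ (0.0256). Of the NAC genes only FEZ passed, and of the cell death genes only RNS3 did not. The others were RNS3 (0.081), SMB (0.0941), BRN1 (0.134) and BRN2 (0.183), and their p does not show that they were alike in all lines. Without the 3 arrays labelled cpc ttg2, EXI1 (0.000178), PASPA3 (0.0374) and DMP4 (0.0334) passed, and BFN1 (0.0995) and FEZ (0.531) did not.

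**Figure D1:**
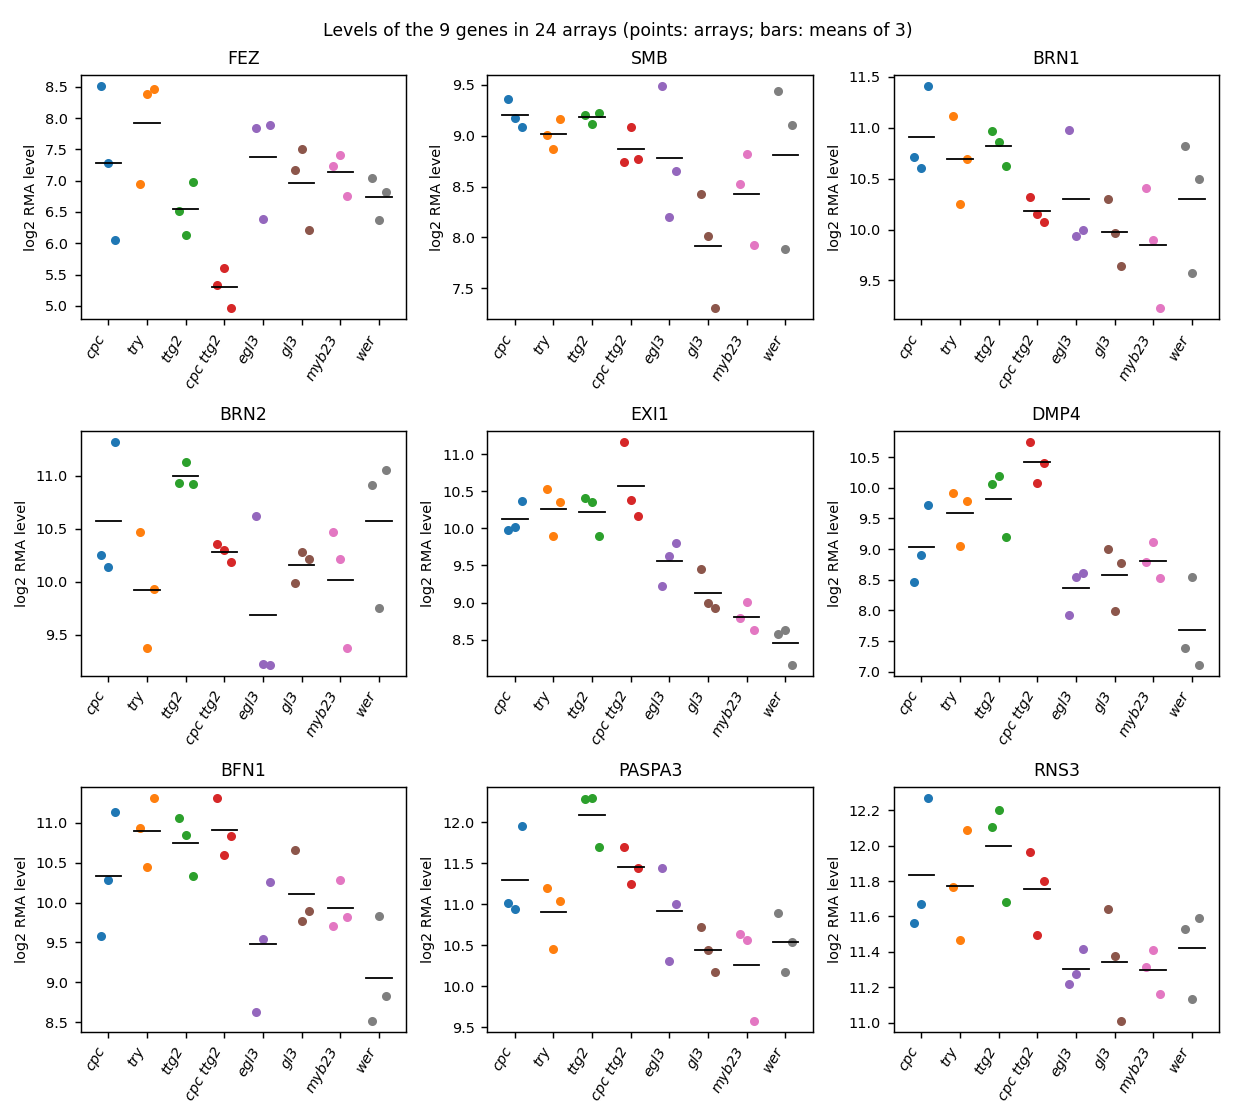
Log2 RMA level (y axis) of each of the 9 genes in the 24 arrays, by line (x axis); points are arrays and bars are means of 3. EXI1 runs from 8.46 in wer to 10.57 in the arrays labelled cpc ttg2, and FEZ is lowest in those arrays at 5.30.

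Most lines had more FEZ transcript than the arrays labelled cpc ttg2, by up to 2.63. Its levels were 5.33, 5.596 and 4.96 in those arrays and 6.51, 6.13 and 6.98 in ttg2. They were 8.52, 7.28 and 6.06 in cpc and 6.95, 8.38 and 8.46 in try. In egl3 FEZ was at 7.85, 6.39 and 7.90, in gl3 at 7.17, 7.50 and 6.21, in myb23 at 7.23, 7.41 and 6.76, and in wer at 7.05, 6.37 and 6.81. All 3 arrays labelled cpc ttg2 lay below all 21 others, while the other lines overlapped, and cpc alone spanned the whole range of the rest. The difference from the arrays labelled cpc ttg2 passed in 6 of 7 lines: try (2.63 ± 0.53 SE, adjusted p = 0.00124), egl3 (2.08, 0.00521), cpc (1.99, 0.0259), myb23 (1.84, 0.0156), gl3 (1.67, 0.0275) and wer (1.45, 0.0499). The exception was ttg2, where the arrays labelled cpc ttg2 differed by -1.25 ± 0.53 (adjusted p = 0.136). Over all genes, 23.2% of tests in the 7 pairs with those arrays passed, from 9.1% against cpc to 34.9% against egl3. FEZ had 0 calls among the 21 pairs of the other lines. Only the differences from try and egl3 passed in all 24 runs that left out 1 array. That from cpc ended without cpc replicate 1 or 2 or cpc ttg2 replicate 2 or 3 (adjusted p up to 0.139), that from gl3 without cpc ttg2 replicate 1 or 3 or gl3 replicate 1 or 2 (up to 0.127), and that from myb23 without cpc ttg2 replicate 3 or myb23 replicate 2 (up to 0.064). That from wer ended in 19 of the 24 runs (up to 0.149). A sort that caught fewer dividing cap stem cells and less FEZ transcript per cell cannot be told apart in such pooled cells, and the same holds for every gene below.

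SMB, the factor that promotes maturation of the lateral cap, had no pair of lines past the threshold. Its level was 9.36, 9.17 and 9.08 in cpc, 9.003, 8.87 and 9.16 in try, 9.21, 9.11 and 9.22 in ttg2, and 8.74, 9.08 and 8.77 in the arrays labelled cpc ttg2. It was 9.49, 8.20 and 8.65 in egl3, 8.43, 8.01 and 7.30 in gl3, 8.52, 8.82 and 7.93 in myb23, and 9.44, 7.89 and 9.10 in wer. The first 4 lines were tight and the last 4 were spread, with an SD from 0.06 to 0.19 in the former and from 0.46 to 0.81 in the latter. The lowest mean was in gl3 (7.92 ± 0.57), where no array reached those of cpc (9.20 ± 0.14), but the difference of -1.29 ± 0.36 had an adjusted p of 0.145. Without wer replicate 2, the low array of that line, the F test of SMB passed (adjusted p = 0.0256).

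BRN1 and BRN2, which act in the last steps of cap maturation, also had no pair past the threshold. BRN1 line means ran from 9.84 ± 0.59 in myb23 to 10.91 ± 0.44 in cpc, and BRN2 means from 9.69 ± 0.81 in egl3 to 10.999 ± 0.12 in ttg2. The widest difference of BRN1, -1.07 between myb23 and cpc, was about the median range of line means over all genes, 0.97. In both genes single arrays stood apart from their line. For BRN2, cpc replicate 3 was at 11.32 beside 10.25 and 10.14, egl3 replicate 1 was at 10.62 beside 9.23 and 9.22, and wer replicate 2 was at 9.76 beside 10.92 and 11.05. The same 3 arrays were the odd ones for BRN1, at 11.41, 10.97 and 9.57. Without egl3 replicate 1 the F test of BRN2 passed (adjusted p = 0.0481). For SMB, BRN1 and BRN2, 8, 5 and 5 of 28 pairs had an unadjusted p under 0.05 in limma. The share of all genes at that threshold is not given here, so these counts do not set the 3 genes apart.

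EXI1, used as a marker of developmental cell death, separated the lines most clearly of the 9. Its levels were 9.97, 10.01 and 10.37 in cpc, 10.53, 9.90 and 10.35 in try, and 10.40, 10.35 and 9.90 in ttg2. The arrays labelled cpc ttg2 were at 11.16, 10.38 and 10.16. In egl3 it was at 9.23, 9.63 and 9.81, in gl3 at 9.46, 8.99 and 8.92, in myb23 at 8.79, 9.01 and 8.64, and in wer at 8.57, 8.64 and 8.17. Every array of the first 4 lines lay above every array of the last 4, and this division was seen after the values were known. The order of means was the arrays labelled cpc ttg2 (10.57), try (10.26), ttg2 (10.22), cpc (10.12), egl3 (9.55), gl3 (9.12), myb23 (8.81) and wer (8.46). No 2 neighbours in that order differed at an adjusted p under 0.05.

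Across the 28 pairs of lines EXI1 had 11 calls, the most of the 9 genes, where 6.65% of all tests over genes and pairs passed. It was lower in wer than in the cpc ttg2 arrays (-2.11 ± 0.26, adjusted p = 3.33e-05), try (-1.80, 0.000382), ttg2 (-1.76, 0.00384), cpc (-1.66, 0.0015) and egl3 (-1.10, 0.0394). It was lower in myb23 than in the arrays labelled cpc ttg2 (-1.76, 0.000211), try (-1.45, 0.00403) and cpc (-1.31, 0.0158). The remaining calls put gl3 below the arrays labelled cpc ttg2 and try, and egl3 below the arrays labelled cpc ttg2, by 1.44, 1.14 and 1.01. Of the 11 calls, 8 passed in all 24 runs without 1 array. The difference of myb23 from cpc ended without cpc replicate 3, myb23 replicate 1 or myb23 replicate 3 (adjusted p up to 0.122). That of wer from egl3 ended without any wer or myb23 array, egl3 replicate 2 or 3, cpc replicate 2 or try replicate 3 (up to 0.161). That of try from gl3 ended without any myb23 array, gl3 replicate 2 or 3, try replicate 1 or 3, cpc replicate 2 or ttg2 replicate 2 (up to 0.218).

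DMP4, a gene of the DUF679 membrane protein family, was highest in the arrays labelled cpc ttg2 and lowest in wer. Its levels were 8.46, 8.91 and 9.73 in cpc, 9.92, 9.04 and 9.78 in try, 10.07, 10.19 and 9.19 in ttg2, and 10.75, 10.08 and 10.41 in the arrays labelled cpc ttg2. They were 7.92, 8.55 and 8.61 in egl3, 8.996, 7.99 and 8.77 in gl3, 8.78, 9.11 and 8.52 in myb23, and 7.39, 8.55 and 7.12 in wer. In wer, replicate 2 was at the level of egl3 and gl3, and the other 2 arrays were the lowest of the 24. The difference of wer was -2.73 ± 0.40 from the arrays labelled cpc ttg2 (adjusted p = 0.00017), -2.13 from ttg2 (0.0179) and -1.90 from try (0.00752). Those from cpc (-1.35, 0.0703) and myb23 (-1.12, 0.999) did not pass. The arrays labelled cpc ttg2 were also above egl3, gl3, myb23 and cpc, by 2.05, 1.83, 1.61 and 1.38. The call against try ended without wer replicate 1 (adjusted p = 0.0527), and the call against ttg2 ended without ttg2 replicates 1 or 2, or wer replicates 1 or 3 (0.0901 at most).

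BFN1, the bifunctional nuclease, followed the same lines at both ends. Its levels were 9.58, 10.29 and 11.14 in cpc, 10.93, 10.45 and 11.31 in try, 11.06, 10.84 and 10.33 in ttg2, and 11.31, 10.60 and 10.84 in the arrays labelled cpc ttg2. They were 8.62, 9.55 and 10.26 in egl3, 10.66, 9.77 and 9.90 in gl3, 9.71, 10.28 and 9.81 in myb23, and 8.52, 9.83 and 8.82 in wer. The wer arrays overlapped those of egl3, gl3, myb23 and cpc and lay below all of try, ttg2 and the arrays labelled cpc ttg2. BFN1 passed in 3 pairs: wer against the arrays labelled cpc ttg2 (-1.86 ± 0.43, adjusted p = 0.00441), wer against try (-1.84, 0.0165) and egl3 against the arrays labelled cpc ttg2 (-1.44, 0.0146). The first of these held in all 24 runs without 1 array. The second ended without try replicate 3, wer replicate 1 or wer replicate 3 (adjusted p up to 0.112), and the third without cpc ttg2 replicate 1 or egl3 replicate 1 (up to 0.0944). From cpc the wer difference was -1.28 (0.12), and the interval of 95% ran from -2.18 to -0.37.

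PASPA3, a gene for a putative aspartic protease, had its highest mean in ttg2. Its levels were 12.28, 12.30 and 11.71 in ttg2, 11.70, 11.25 and 11.44 in the arrays labelled cpc ttg2, 11.01, 10.94 and 11.96 in cpc, and 11.20, 10.46 and 11.04 in try. They were 11.45, 10.30 and 11.01 in egl3, 10.72, 10.45 and 10.18 in gl3, 10.64, 10.57 and 9.58 in myb23, and 10.89, 10.17 and 10.54 in wer. The arrays of ttg2 did not overlap any line but cpc, whose replicate 3 reached 11.96. PASPA3 passed in 3 pairs, wer against ttg2 (-1.56 ± 0.34, adjusted p = 0.041) and gl3 and myb23 against the arrays labelled cpc ttg2 (-1.01, 0.0372, and -1.20, 0.015). None of the 3 held in every run without 1 array. The call against ttg2 ended without any wer or ttg2 array, egl3 replicate 3, myb23 replicate 2 or try replicate 3 (adjusted p up to 0.145), and at 0.0555 without the arrays labelled cpc ttg2. The myb23 call ended without cpc ttg2 replicate 1 or myb23 replicate 3 (up to 0.0964), and the gl3 call without any cpc ttg2 replicate or gl3 replicate 2 or 3 (up to 0.108). The widest gap, ttg2 over myb23 by 1.83, had an adjusted p of 0.0512.

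RNS3, an S-like ribonuclease, varied least of the 9, with line means from 11.30 ± 0.13 in myb23 to 11.997 ± 0.28 in ttg2. The range of 0.70 stood at the 30.2 percentile of all genes, where that of DMP4 stood at 97.2, FEZ at 96.7 and EXI1 at 91.4. RNS3 had 0 of 28 pairs past the adjusted threshold and 8 with an unadjusted p under 0.05 in limma. No share of all genes at the unadjusted threshold stands beside that count. Its line order was ttg2, cpc, try and the arrays labelled cpc ttg2, then wer, gl3, egl3 and myb23. The upper and lower 4 lines were those of EXI1, but their arrays overlapped.

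In wer against cpc, the comparison of a line whose epidermis lacks the non-hair MYB factor with one that lacks its inhibitor, 1 of the 9 genes passed, where 3.05% of all genes did. EXI1 was 3.16-fold lower in wer. Its arrays did not overlap, and neither did those of PASPA3 (-0.77, adjusted p = 0.263), which did not pass. All 5 cell death genes had lower means in wer, with a median difference of -1.28 where that of all genes was 0.01. The NAC genes had -0.54 (FEZ), -0.39 (SMB), -0.61 (BRN1) and 0.00 (BRN2), each with overlapping arrays. For SMB the interval of 95% ran from -1.14 to 0.36, so a difference as large as that of EXI1 lay outside it. Without cpc replicate 1 or without wer replicate 2, DMP4 and BFN1 passed as well, giving 3 genes, and in a fit of the 6 arrays alone 0 of 9 passed. In that fit EXI1 had an adjusted p of 0.0534, and of 0.0755 with the replicate number as a block, with 90 and 82 genes called over the whole table.

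**Figure D2:**
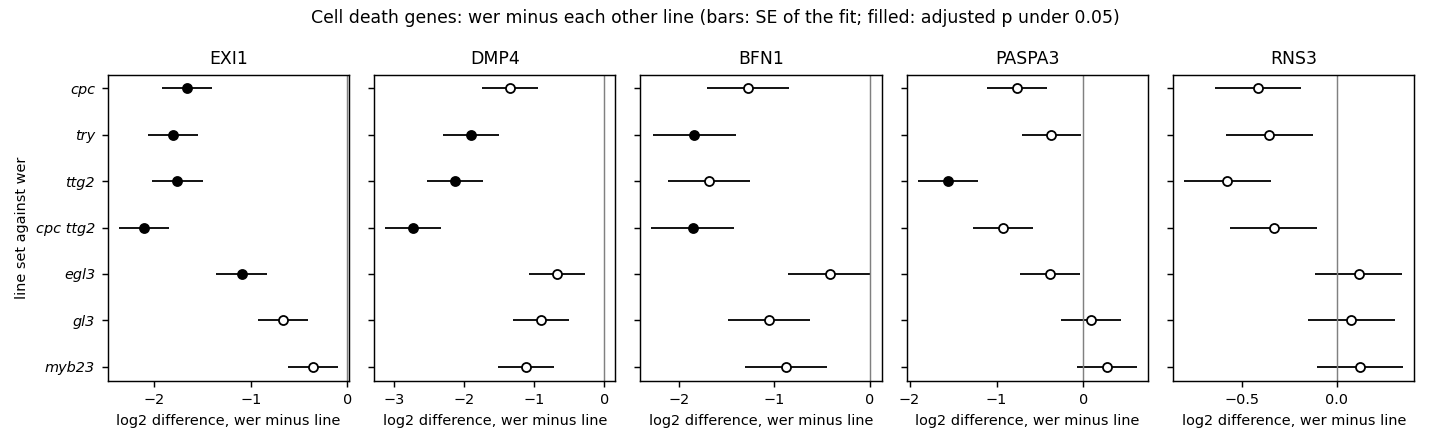
Difference of wer from each of the other 7 lines (x axis, log2; lines on the y axis) for the 5 cell death genes; bars are the SE of the fit and filled points have an adjusted p under 0.05. EXI1 is filled against 5 lines, DMP4 against 3, BFN1 against 2, PASPA3 against 1 and RNS3 against 0.

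Where the other comparisons with wer called any of the 9, these were cell death genes, apart from FEZ against the arrays labelled cpc ttg2. In wer against try 3 of 9 passed (5.1% of all genes), EXI1, DMP4 and BFN1, and in wer against ttg2 3 of 9 (0.611%), EXI1, DMP4 and PASPA3. EXI1 alone passed in wer against egl3 (1.32%). In wer against myb23 0 of 9 passed, where 0.0187% of all genes did, and DMP4 had an unadjusted p under 0.05 in limma. These comparisons share the 3 wer arrays. The mean of 12 other root cap genes was also low there, at 7.36 ± 0.27 in wer beside 7.87 ± 0.32 in cpc, 7.94 ± 0.17 in try and 7.77 ± 0.06 in ttg2. The list had 0 of 12 called against each of those 3 lines, with medians of -0.55, -0.57 and -0.43. What the amount of cap in the sort contributes to the cell death differences was not tested.

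The arrays labelled cpc ttg2 differed from cpc in 2 of 9 genes, where 9.1% of all genes did. FEZ was 3.98-fold lower and DMP4 2.61-fold higher. Both differences kept their sign in all 24 runs without 1 array (-2.61 to -1.37 for FEZ, 1.10 to 1.73 for DMP4). The call of FEZ ended without cpc replicate 1 or 2 or cpc ttg2 replicate 2 or 3, and that of DMP4 without either of those cpc arrays or any of the 3 arrays labelled cpc ttg2, so that 0 or 1 genes passed (adjusted p up to 0.139 for FEZ and 0.158 for DMP4). Against ttg2, 0 of 9 passed, where 10.2% of all genes did, and FEZ had an unadjusted p under 0.05 in limma. The other pairs with these arrays had high counts over all genes as well. Of the 9, 4 passed in each of egl3 (34.9% of all genes), gl3 (25%), myb23 (26.7%) and wer (26%), and 1 in try (30.8%). The shares of 4 in 9 lay above those backgrounds and that of try below. FEZ was called lower in the arrays labelled cpc ttg2 in all 5 of these pairs, and EXI1 and DMP4 were called higher there in the 4 without try. Against try EXI1 was at 10.57 beside 10.26, and DMP4 at 10.41 beside 9.58 (unadjusted p = 0.0499 in limma), and neither passed. Ground tissue (5.02 ± 0.29), phloem and other stele (6.16 ± 0.13) and xylem (4.43 ± 0.15) list means were also highest there, and their part in these differences was not tested.

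In gl3 against egl3, which compares the bHLH partners, 0 of 9 genes passed (0.658% of all genes), and SMB had an unadjusted p under 0.05 at -0.86 ± 0.36. In cpc against try, the comparison of both small MYB inhibitors, 0 of 9 passed (2.35%), with 0 unadjusted. The intervals of 95% in cpc against try still allowed -1.75 to 0.46 for FEZ and -0.21 to 1.496 for BRN2. EXI1 was the single gene that passed in myb23 against cpc (0.658%), try against gl3 (0.816%) and try against myb23 (1.43%). These were the 3 calls among the 135 tests in the 15 pairs without wer and without the arrays labelled cpc ttg2.

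Over all 28 pairs and 9 genes, 30 of 252 tests passed (11.9%), where 6.65% of all tests over genes and pairs did. The calls were 11 for EXI1, 7 for DMP4, 6 for FEZ, and 3 each for BFN1 and PASPA3. Pairs with the arrays labelled cpc ttg2 held 19 of 63 (30.2%, against 23.2% over all genes) and pairs with wer held 12 of 63 (19.0% against 5.16%). The remaining 15 pairs held 3 of 135 (2.22% against 0.888%). The pair of wer with the arrays labelled cpc ttg2 is counted in both. Pairs share lines, so these calls are not independent. For cell death genes the lower line in the calls was wer, myb23, gl3, egl3 or cpc, and for FEZ it was always the arrays labelled cpc ttg2.

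How the 9 genes varied together over the 24 arrays is given as a description. Of 36 relations, 21 had a Pearson r with a Benjamini-Hochberg adjusted permutation p under 0.05, and 13 did once each line's mean was subtracted and arrays were permuted within lines. For levels the 24 arrays were permuted freely, without regard to line. Those p treat replicates of a line as independent, so they can be too small. DMP4 and BFN1 had the closest relation (r = 0.91, Spearman's rho = 0.91, adjusted permutation p = 9e-05 for r, 0.89 without the 2 arrays farthest from the median). Within lines their r was 0.86 (adjusted permutation p = 0.00036). EXI1 went with both, at 0.85 with DMP4 and 0.80 with BFN1, and at 0.75 and 0.73 within lines. SMB, BRN1 and BRN2 went together and with PASPA3. SMB and BRN1 had r = 0.80 (rho = 0.81, adjusted permutation p = 9e-05), BRN1 and BRN2 0.71 (rho 0.70), BRN1 and PASPA3 0.76 (rho 0.75) and BRN2 and PASPA3 0.66 (rho 0.61). Within lines BRN1 had 0.90 with BRN2 (rho 0.86, adjusted permutation p = 0.00504) and 0.89 with PASPA3 (rho 0.92, 0.00036).

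The same 3 factors had lower r with the nuclease and DMP4. SMB, BRN1 and BRN2 had r = 0.04, 0.16 and 0.00 with BFN1, and 0.12, 0.19 and 0.09 with DMP4. These 6 had adjusted permutation p from 0.47 to 0.992. With EXI1 they had 0.39, 0.45 and 0.10, of which that of BRN1 passed (rho 0.47, adjusted permutation p = 0.0442). PASPA3 went with both groups of genes, at 0.71 with EXI1 (rho 0.75, adjusted permutation p = 0.000411), 0.59 with DMP4 (rho 0.63, 0.00612) and 0.48 with BFN1 (rho 0.58, 0.0323). Within lines those 3 were 0.44, 0.32 and 0.21, with adjusted permutation p from 0.0805 to 0.634. RNS3 also went with both, at 0.58, 0.70 and 0.54 with SMB, BRN1 and BRN2, and 0.71, 0.63 and 0.67 with EXI1, DMP4 and BFN1. With PASPA3 it had 0.81. Within lines RNS3 passed with PASPA3 (0.71, adjusted permutation p = 0.00382), BRN1 (0.57, 0.0257) and EXI1 (0.59, 0.0364). It did not pass there with SMB, BRN2, DMP4 or BFN1 (adjusted permutation p from 0.0671 to 0.206). FEZ had a negative r with DMP4 (-0.48, rho -0.47, adjusted permutation p = 0.0323), which was -0.27 without the 2 arrays farthest from the median FEZ level and -0.17 without the arrays labelled cpc ttg2, so over the lines it rests on those arrays. Within lines it was -0.60 (rho -0.59, adjusted permutation p = 0.0372), and -0.46 without the 2 farthest arrays. Over cpc replicates 1 to 3 FEZ fell (8.52, 7.28 and 6.06) and DMP4 rose (8.46, 8.91 and 9.73). The mitochondrial mean of those arrays rose as well (4.95, 5.90 and 7.13), and its part was not tested. FEZ and SMB, a pair known to regulate each other, had r = 0.23 over the arrays and 0.54 within lines (rho 0.56, adjusted permutation p = 0.00868). All genes of an array come from the same sort, whose amount of cap was not measured, so a common r does not show that one gene acts on another.

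**Figure D3:**
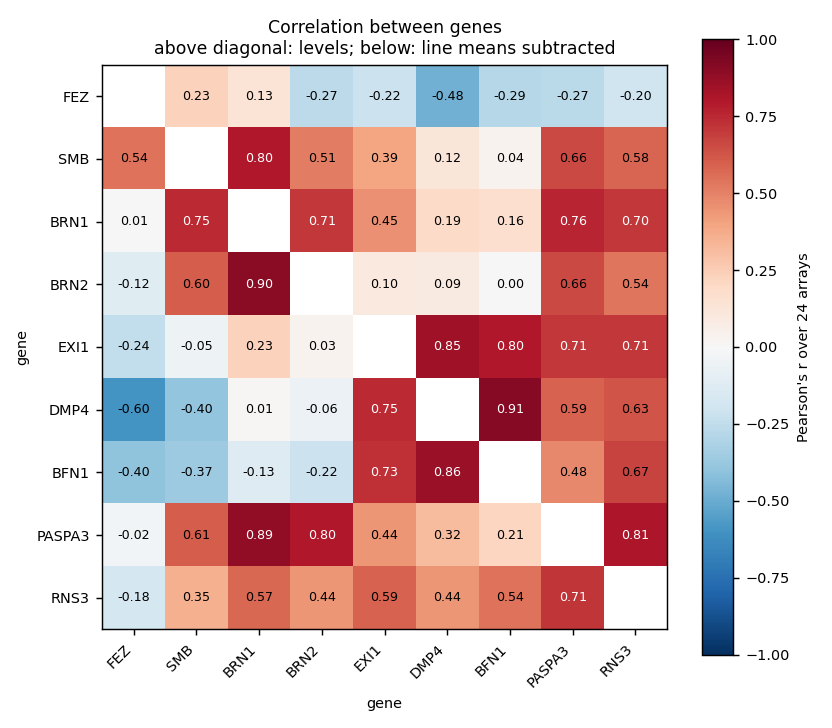
Pearson's r between each pair of the 9 genes (both axes) over 24 arrays, from levels above the diagonal and after each line's mean was subtracted below it; the colour scale runs from -1 to 1. From levels, PASPA3 has r of 0.66 to 0.76 with SMB, BRN1 and BRN2 and of 0.48 to 0.71 with EXI1, DMP4 and BFN1, while SMB, BRN1 and BRN2 stay at or under 0.19 with DMP4 and BFN1.

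**Figure D4:**
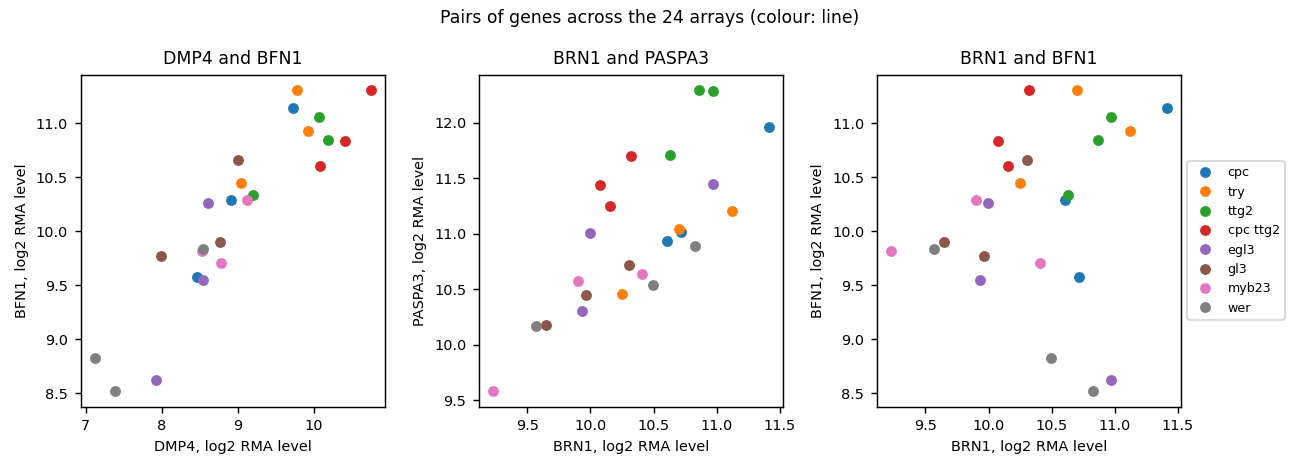
Log2 RMA levels of 3 pairs of genes, 1 point per array, coloured by line. DMP4 and BFN1 (left, r = 0.91) and BRN1 and PASPA3 (middle, r = 0.76) rise together, while BRN1 and BFN1 (right, r = 0.16) do not.

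Over all genes, BFN1 was nearest of any to DMP4 but 1: RGLG1, a RING-type ubiquitin ligase gene, had r = 0.93 with DMP4 over 24 arrays, BFN1 0.91 and AT2G21180 0.90. From the side of BFN1 the nearest was DMP4, then IAA13, an auxin response repressor gene, and AT1G76590. EXI1 was nearest to AT5G65300, ABCG1 and AT3G55430 (0.86 each), with DMP4 at rank 5. SMB had BRN1 at rank 8, behind CXE20 (0.85), GMD1 (0.82) and AT1G07280 (0.81). The genes nearest to BRN1 were AT5G57500, AT4G01240 and AT1G29240 (0.90 to 0.91), and those nearest to BRN2 were AT1G73340, the carboxypeptidase-like gene scpl29 and hemb2 (0.86 to 0.87). PASPA3 was nearest to AT3G47400 (0.89), AT3G20160 and BPA1, and RNS3 to the acid phosphatase gene PAP22 (0.87), PE11 and UGE1. FEZ was nearest to AT5G57230, UBC20, a ubiquitin-conjugating enzyme gene, and AT4G35030 (0.93, 0.93 and 0.91).

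With line means subtracted, the neighbours changed. BRN1 was then nearest to scpl28, SSL2 and AT1G29240 (0.94 each), with BRN2 at rank 8 and PASPA3 at rank 13. The 3 nearest to BRN2 were AT4G01240, AT1G67850 and scpl28, with BRN1 at rank 5, and those nearest to PASPA3 were AT3G47400 (0.94), SCPL34 and AT2G37700, with BRN1 at rank 6. DMP4 still had RGLG1 and BFN1 first, then AT5G48900, and BFN1 had AHL1, GSTU5 and RCD1 (0.89, 0.89 and 0.87) with DMP4 at rank 5. EXI1 had PLDP2, PERK4 and NIP1;2 (0.84, 0.81 and 0.80), SMB had SNRK2.5, GAE1 and AT5G62420 (0.86, 0.84 and 0.84), RNS3 had CYP87A2, SS3 and CML30 (0.87, 0.85 and 0.83), and FEZ had AT4G28310, AT1G53070 and PS1 (0.95, 0.93 and 0.93). These are the highest of 21439 correlations each and carry no test.

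Among other genes of the cap and of cell death, the F test called 5 of 12 other root cap genes, 2 of 6 measured developmental cell death genes, 3 of 9 metacaspases, 1 of 4 vacuolar processing enzymes and 2 of 10 measured relatives of the 5 cell death genes, where 27% of all genes were called. MC9 is in both the developmental cell death and the metacaspase list, so its call is counted in each. In the cap list AUX1, the auxin influx carrier gene, ran from 8.61 ± 0.21 in gl3 to 10.29 ± 0.18 in the cpc ttg2 arrays (adjusted p = 0.000365), and ARF16, an auxin response factor gene of the cap, from 8.44 ± 0.34 in gl3 to 9.78 ± 0.13 in try (0.0207). MC9, the metacaspase gene of xylem cell clearance, ran from 9.14 ± 0.53 in wer to 10.85 ± 0.41 in the cpc ttg2 arrays (0.0106), so its ends were those of DMP4 and EXI1. CEP3, a cysteine endopeptidase gene, had another order, from 4.52 ± 0.57 in egl3 and 4.62 ± 0.51 in try to 7.65 ± 0.36 in cpc and 7.84 ± 0.44 in the cpc ttg2 arrays (0.000301). It was 2.46 higher in wer than in try (adjusted p = 0.00568), opposite in sign to EXI1, DMP4 and BFN1. Of the rest, MC5 (0.0043) and MC4 (0.00637), ALPHAVPE (0.00245), ENDO3, a nuclease gene related to BFN1 (0.00519), and APA2, an aspartic protease gene (0.00649), had the smallest adjusted p in their lists. In the range of line means, the median over the 12 cap genes was 1.29, over the 5 cell death genes 1.86 and over all genes 0.97.

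Xylem is another place where BFN1 and several of its companions are transcribed, so its markers are set beside them. Of 12 xylem genes 4 were called in the F test, and of 10 VND and NST genes, the NAC switches of vessel and fibre formation, 0 were called with limma, where 1, VND1, had an unadjusted p under 0.05 (0.0274). The mean of the 12 xylem genes was 4.24 ± 0.17 in wer and 4.24 ± 0.22 in cpc, and lowest in try at 3.75 ± 0.17. In wer against cpc 2 xylem genes passed in opposite directions, XCP1, a papain-like protease gene, at -0.90 ± 0.22 (adjusted p = 0.0287) and LAC4, a laccase gene, at 1.74 ± 0.42 (0.0265). Over the 8 lines XCP1 had the ends of EXI1, DMP4 and BFN1 (F test adjusted p = 0.00296). It ran from 4.80 ± 0.25 in wer to 6.23 ± 0.21 in the cpc ttg2 arrays. The other called xylem genes, XCP2, CESA4 and LAC4, were lowest in try, and CESA4 and LAC4 were highest in wer. Array means ran from 3.10 to 4.14 for VND and NST genes and from 3.56 to 4.61 for xylem genes. The lowest value of any gene was 2.01, so both lists hold dim genes. What xylem contributes to the cell death differences was not tested. Of the other lists, 2 of 5 phloem and stele genes (APL and WOL), 1 of 6 ground tissue genes (MYB36) and 3 of 8 epidermal genes (RHD6, GL2 and WER) were called. GL2 had its lowest mean in wer (6.92 ± 0.93) and RHD6 its highest there (10.53 ± 0.29).

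The mean of the 12 other root cap genes had the same 4 highest lines as EXI1, a likeness seen after the values were known. Of the single genes 6 of 12 did (CEL5, RCPG, RCP1, ARF10, PIN3 and AUX1). ACR4, a receptor kinase gene, had its lowest mean in the arrays labelled cpc ttg2 (5.15) and DCR, an acyltransferase gene, in cpc (5.20). The list mean was 7.94 ± 0.17 in try, 7.90 ± 0.03 in the arrays labelled cpc ttg2, 7.87 ± 0.32 in cpc and 7.77 ± 0.06 in ttg2. It was 7.53 ± 0.23 in egl3, 7.49 ± 0.18 in myb23, 7.36 ± 0.27 in wer and 7.25 ± 0.13 in gl3. The first 4 lines lay between 7.57 and 8.20 and the others between 7.05 and 7.80, so the arrays overlapped. The lowest cap mean was that of gl3, where SMB was also lowest, while EXI1, DMP4 and BFN1 were lowest in wer. The low array within wer in the cap mean, replicate 2 (7.05), was the low one for FEZ, SMB, BRN1, BRN2, PASPA3 and RNS3. It was the highest of its line for DMP4, BFN1 and, narrowly, EXI1 (8.64 beside 8.57 and 8.17). What the amount of cap contributes to these levels was not tested.

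**Figure D5:**
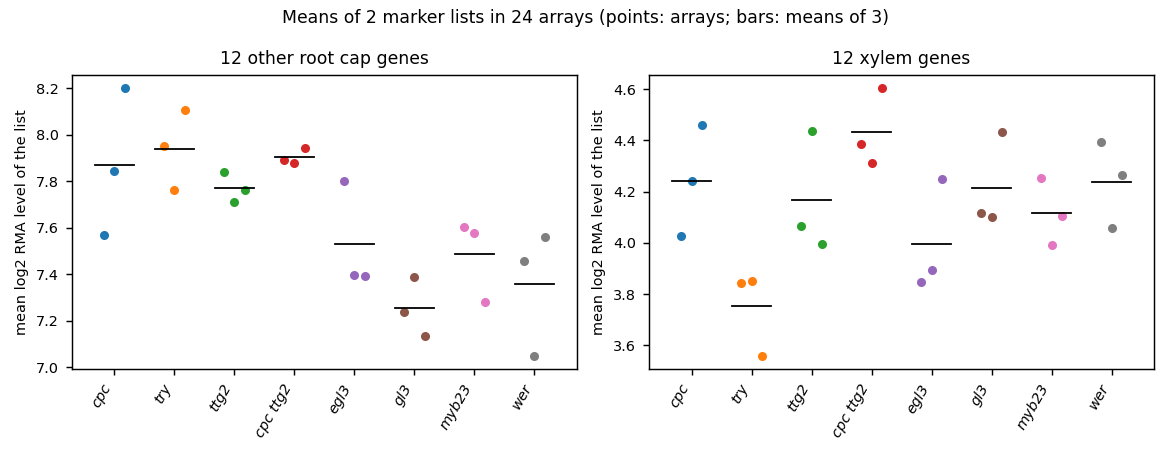
Mean log2 RMA level (y axis) of 12 other root cap genes and of 12 xylem genes in the 24 arrays, by line (x axis); points are arrays and bars are means of 3. The cap mean runs from 7.25 in gl3 to 7.94 in try, and the xylem mean from 3.75 in try to 4.43 in the arrays labelled cpc ttg2.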

How the data were processed

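Per the labels' protocols, fluorescent cells were sorted from root tips and biotin-labelled cRNA was hybridised to Affymetrix arrays. The deposited values are log2 levels, which the authors made with RMA, per the submitters' processing notes. RMA pulls array distributions together and compresses differences between dim genes. The sources used here give no array type, probe set build or version. The 64 control entries of 21504 were left out, and 0 sample columns were unused. Locus codes were matched to a RefSeq table of assembly TAIR10.1 (21222 matched, 218 did not), for names and gene order only.

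Line means were estimated over the 24 arrays together with limma 3.58.1 in R 4.3.3 (lmFit, eBayes), tested on simulated data. The F test and all 28 pairs of lines used 2-sided p-values, Benjamini-Hochberg adjusted over 21440 genes, with calls at an adjusted p under 0.05. All limma adjusted p-values come from this fit unless a setting is named. Errors of differences are its SE and its intervals have a confidence level of 95%. Correlations used 100000 permutations, whose smallest p is 1e-05. Arrays were permuted freely over all lines for levels, and within lines once line means were subtracted.

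Named genes were the 9, up to 2 called genes of smallest F test p per list, and the 3 genes most correlated with each of the 9, over levels and with line means subtracted. Other genes named were chosen after their values were seen. The 10 lists beside the 9 genes held 87 genes, of which 79 were measured. The genes and lists were chosen with earlier results of these data known. Alternatives were 2 other scalings, a replicate block, a minimum mean of 5, a mean-variance trend, array weights (gene by gene, since the REML estimate did not converge), fits of single pairs and left-out arrays. Leaving out the 4 arrays of narrowest interquartile range was added after seeing the data. Replicate numbers carry no stated meaning. In 4 of 28 pairs of lines all 3 same-numbered pairs deviated together with r over 0.1, and these 4 were picked from the data as paired. They were wer and cpc (0.22 to 0.44), wer and egl3 (0.21 to 0.42), try and myb23 (0.14 to 0.29) and ttg2 and try (0.21 to 0.39). Over all lines an r over 0.1 occurred in 32 of 84 same-numbered pairs of arrays and in 61 of 168 with different numbers. The choice therefore does not show that the numbers pair arrays.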

Additional observations from a re-analysis of the deposited data

How the results depend on the processing

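No called difference of the 9 genes changed sign under any setting. Array weights gave 8 genes in the F test and 55 calls over the pairs of lines. Over all genes they gave 12021 and 80017 calls, against 5786 and 39904 in the main fit. In cpc against try array weights gave 3 genes (FEZ, DMP4 and BFN1). Over all genes 8402 were called in that pair with array weights, against 504 in the main fit. The 3 calls therefore do not set the 9 genes apart. Without the 3 arrays labelled cpc ttg2 there were 3 genes and 11 calls, in 21 pairs, and 872 and 4801 over all genes. Without the 4 arrays of narrowest spread 24 of the 30 calls remained, and PASPA3 left the F test (adjusted p = 0.0534), with 3179 genes. In fits of 6 arrays, wer against cpc and the arrays labelled cpc ttg2 against cpc gave 0 genes (90 and 61 over all genes). The arrays labelled cpc ttg2 against ttg2 gave 1, FEZ (adjusted p = 0.0474), with 1478 over all genes. Runs without 1 array gave 4 to 6 genes in the F test, 25 to 33 calls, 1 to 3 genes in wer against cpc, 0 to 2 in cpc ttg2 against cpc, and 0 in the other 4 comparisons. FEZ left the F test without any cpc ttg2 array or try replicate 2 or 3 (adjusted p up to 0.106), and 15 of 30 calls held in all 24 runs. Centring each array on its median kept 26 of 30 calls. It ended FEZ in wer against the arrays labelled cpc ttg2 (1.26, adjusted p = 0.0616), EXI1 in wer against egl3 (-0.95, 0.0991) and try against gl3 (1.15, 0.0624) and PASPA3 in wer against ttg2 (-1.52, 0.0661), and RNS3 entered the F test (0.0365), as with a mean-variance trend (0.0458). Quantile normalisation and the filter on dim genes kept all 30. Over all lines same-numbered replicates had a mean r of 0.04 (84 pairs of arrays, and -0.02 over 168 with different numbers). The replicate block kept 29 of 30 calls, with 33 in all and 5 genes in the F test, and FEZ in wer against the arrays labelled cpc ttg2 ended (adjusted p = 0.0562). In the 4 pairs of lines taken as paired, the block changed no count of the 9 genes over 24 arrays. With the 6 arrays of a pair and the block, a setting chosen after seeing the data, wer against cpc and wer against egl3 gave 0. EXI1 had an adjusted p of 0.0755 and 0.155 there, with 82 and 144 genes called over the whole table. The pair try against myb23 kept EXI1 (0.0199), with 863 genes called over the whole table. Other causes of changes were not tested.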
